A study of Mus musculus with 10 samples.

Results

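The bile acid, phospholipid and sterol transporters are the 10 carrier genes that move the main constituents of bile through the hepatocyte. They were chosen by gene symbol, with earlier results of these data known. All 10 were found among the 53392 genes of the table and passed the filter on low counts. By role they were 4 uptake carriers of the blood-facing membrane (Slc10a1, Slco1a1, Slco1a4 and Slco1b2), 5 pumps of the canalicular membrane, which faces bile (Abcb11, Abcb4, Abcc2, Abcg5 and Abcg8), and 1 pump that exports back to blood (Abcc3). RNA was sequenced from snap-frozen whole livers of C57BL/6 mice aged 24 weeks, 5 wild type (WT, replicates 1 to 5) and 5 lacking hepatic Fbp1 (Fbp1-deleted, replicates 6 to 10). The deleted gene codes for a gluconeogenic phosphatase that acts on fructose bisphosphate. The sources used here do not say which Cre line deleted it, which allele the controls carry or when the mice last ate.

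Bile acids circulate between the liver and the gut. Hepatocytes take them up from portal blood by sodium-driven NTCP (Slc10a1) and by the sodium-independent organic anion carriers of the Slco family, and pump them into bile by the bile salt export pump BSEP (Abcb11). Bile also carries phosphatidylcholine, which the floppase MDR2 (Abcb4) delivers and which shields the bile duct from bile salts, and cholesterol and plant sterols, which the partner subunits Abcg5 and Abcg8 export together. MRP2 (Abcc2) and MRP3 (Abcc3) export conjugates such as bilirubin glucuronide, into bile and into blood respectively.

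The stretches before the transcription starts of these genes are shown first, because the nuclear receptors for bile acids (FXR) and oxysterols (LXR) bind pairs of the hexamer AGGTCA in promoters. RefSeq windows of GRCm38.p6, from 250 bases before a start, were at hand for 9 of the 10 genes. An inverted repeat of the hexamer with 1 base between, AGGTCANTGACCT, was searched with up to 2 mismatches. It reads the same on both strands, and its right arm is the hexamer on the other strand. It was found in 1.14% of 32851 promoter windows of the same length and, among the members, in those of Abcb11 and Slco1b2. Capitals mark the matches with 1 mismatch, from 63 to 51 bases before the start of Abcb11 and from 88 to 76 before that of Slco1b2. The bases shown are 150 per gene, read 5′ to 3′ along the gene, and end just before the start that GENCODE M21 annotates, which for Abcb4 lies a few bases upstream of the RefSeq start.
Abcb11: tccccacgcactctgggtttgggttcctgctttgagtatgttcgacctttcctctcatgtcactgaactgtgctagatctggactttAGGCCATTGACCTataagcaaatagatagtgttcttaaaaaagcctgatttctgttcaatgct
Slco1b2: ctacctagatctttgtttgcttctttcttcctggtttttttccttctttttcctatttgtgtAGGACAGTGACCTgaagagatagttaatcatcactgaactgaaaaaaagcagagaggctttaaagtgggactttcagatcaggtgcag
These lie at chr2:69342617-69342766 on the minus strand and chr6:141629368-141629517 on the plus strand, and neither touches an annotated exon.

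The same stretches of the 2 genes that passed the test, described next, held no such match, nor the single hexamer on either strand. Of all windows, which are longer at 300 bases, 16.3% hold that hexamer.
Abcb4: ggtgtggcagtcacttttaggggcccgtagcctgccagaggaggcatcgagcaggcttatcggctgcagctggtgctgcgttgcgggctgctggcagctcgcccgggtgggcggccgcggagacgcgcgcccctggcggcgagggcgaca
Slc10a1: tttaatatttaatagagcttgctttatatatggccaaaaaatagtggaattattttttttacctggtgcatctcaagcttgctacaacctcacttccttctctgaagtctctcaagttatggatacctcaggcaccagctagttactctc
They lie at chr5:8893567-8893716 on the plus strand and chr12:80968706-80968855 on the minus strand. Their base composition was far apart, with G or C at 72.0% of the bases of Abcb4 and 36.7% of those of Slc10a1. A further start of Slc10a1, inside the gene, had the hexamer from 87 to 82 bases before it. A direct repeat of the hexamer with 4 bases between, searched with up to 3 mismatches, was in 21.9% of all windows. Among the members it was found at that further start alone, from 87 to 72 bases before it, with 3 mismatches.

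Values below are CPM, counts relative to the library total after TMM scaling, mean ± SD over the 5 livers of a group. A change is the log2 value in Fbp1-deleted liver less that in WT, given with its standard error (SE) from edgeR. P-values were adjusted by Benjamini-Hochberg across 15392 tested genes, and a gene passed when the adjusted p was under 0.05. The libraries held between 17778395 and 23894812 counts, so all members but Slco1a1 had at least 1465 counts in each library. Fbp1 itself stood at 778 to 1050 CPM in WT and at 7.38 to 13.4 CPM in the Fbp1-deleted livers. Over all genes 20.6% passed the test, 1636 higher and 1542 lower. In these bulk samples, fewer cells of a type and less RNA per cell cannot be told apart.

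Of the 10 transporters 2 rose and 0 fell in Fbp1-deleted liver by edgeR. These were the phospholipid floppase Abcb4 and the bile acid uptake carrier Slc10a1. This share, 2 of 10, is close to the 20.6% called in either direction among all genes tested, and 10.6% of those tested were called higher. The same 2 members had groups of 5 that did not overlap, both higher, beside 13.5% of all genes (6.57% higher and 6.89% lower). The median change of the 10 was 0.14, beside 0.0093 over all genes tested. By role, 1 of 4 uptake carriers, 1 of 5 canalicular pumps and 0 of 1 exporters to blood rose, with median changes of 0.36, -0.0038 and 0.16. At an unadjusted p under 0.05 no further member passed, and DESeq2 and limma-voom called the same 2 genes.

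**Figure D1:**
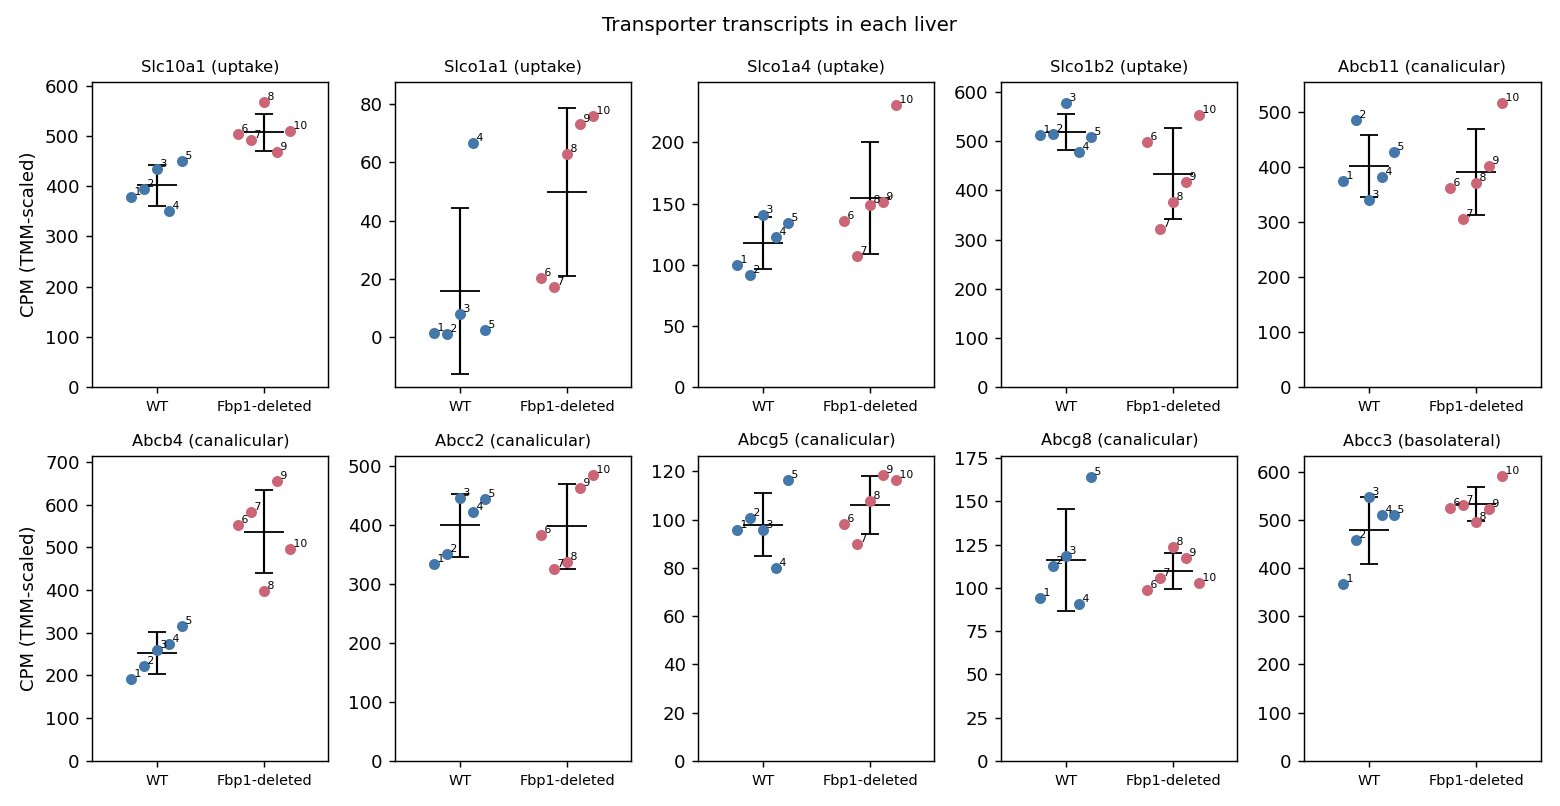
CPM of each transporter transcript (vertical axes, linear) in the 5 WT and 5 Fbp1-deleted livers, 1 point per liver labelled with its replicate number, with bars for mean ± SD. Abcb4 and Slc10a1 are the 2 genes whose groups do not overlap, and WT replicate 4 stands at 66.4 CPM of Slco1a1.

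Abcb4 had the largest change that passed. This gene lies on chromosome 5, from 8893717 to 8959231 on the plus strand in GRCm38, and its 150 upstream bases are shown above. Its level was 191, 222, 259, 274 and 317 CPM in WT replicates 1 to 5. In Fbp1-deleted replicates 6 to 10 it was 553, 582, 397, 656 and 497 CPM. Each Fbp1-deleted liver stood above each WT liver, with replicate 8 the lowest of its group. The means were 253 ± 48.4 and 537 ± 96.9 CPM, a change of 1.09 (SE 0.16, adjusted p = 0.000466, edgeR), or 2.13-fold with a 95% interval of 1.69 to 2.68. The call held under all 17 alternatives, with changes between 0.997 and 1.18.

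The rise of Abcb4 can be set beside markers of other cell types in whole liver. Summed bile duct cell markers (22 genes, 14 tested, 0 higher and 1 lower) stood at 100.1 to 115 CPM in WT and at 76.9 to 93.4 CPM in Fbp1-deleted liver. Summed hepatocyte markers (20 genes, 3 higher and 2 lower) stood at 100443 to 151745 CPM and at 134914 to 149717 CPM. Kupffer cell and macrophage markers (14 genes, 0 higher and 9 lower) ranged from 411 to 566 and from 306 to 442 CPM, and other leukocyte markers (15 genes, 12 tested, 0 higher and 3 lower) from 23.9 to 29.9 and from 11.8 to 17.8 CPM. Sinusoidal endothelial markers (12 genes, 1 higher and 0 lower) ranged from 381 to 459 and from 265 to 447 CPM, and stellate cell markers (14 genes, 13 tested, 2 higher and 0 lower) from 335 to 438 and from 431 to 513 CPM. At an unadjusted p under 0.05 (edgeR), 1 bile duct marker was higher and 5 lower, 0 Kupffer cell markers higher and 11 lower, and 0 leukocyte markers higher and 6 lower. By the same measure 1 endothelial marker was higher and 6 lower, and 6 stellate cell markers were higher and 0 lower. None of the listed markers was at 0 in all libraries. The part of these shifts in the transporter results was not tested.

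Abcb11, the bile salt pump that works beside Abcb4 in the canalicular membrane, did not pass the test. It stood at 376, 486, 340, 381 and 427 CPM in WT and at 362, 306, 371, 403 and 517 CPM in Fbp1-deleted liver. The groups overlapped widely. The log2 difference came to -0.04 (SE 0.14, adjusted p = 0.878, edgeR), with a 95% interval from -20.9% to 20.1%. The log2 ratio of Abcb4 to Abcb11 CPM within a liver was -0.98, -1.13, -0.39, -0.48 and -0.43 in WT. In Fbp1-deleted liver it was 0.61, 0.93, 0.10, 0.70 and -0.06. The ratio was thus higher in each Fbp1-deleted liver than in each WT liver, closest in replicate 10. This ratio is a description and was not tested. Abcb11 lies on chromosome 2, from 69238282 to 69342616 on the minus strand, and overlaps the antisense gene Gm13613, whose reads this library type cannot separate from its own.

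Neither conjugate pump passed. Abcc2 (chromosome 19, 43782192 to 43840740, plus strand) stood at 399 ± 53.1 CPM in WT and 398 ± 72.1 CPM in Fbp1-deleted liver, a change of -0.0038 (SE 0.14, adjusted p = 0.988, edgeR) with a 95% interval from -18.5% to 22.1%. Abcc3 (chromosome 11, 94343295 to 94392997, minus strand) stood at 478 ± 69.9 and 533 ± 35.2 CPM, a change of 0.16 (SE 0.11, adjusted p = 0.360, edgeR) with an interval from -5.95% to 32.1%. WT replicate 1 was the lowest of all livers for Abcc3, at 367 CPM, where the other WT livers lay between 457 and 547. The log2 ratio of Abcc3 to Abcc2 ranged from 0.14 to 0.38 in WT and from 0.18 to 0.71 in Fbp1-deleted liver, so the groups overlapped.

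The sterol exporter genes Abcg5 and Abcg8 stand head to head on chromosome 17, at 84658234 to 84683011 (minus strand) and 84676302 to 84700333 (plus strand). The RefSeq starts that face each other are 109 bases apart, and these bases, printed along Abcg5, are shown because both genes read outward from them.
Abcg5 and Abcg8: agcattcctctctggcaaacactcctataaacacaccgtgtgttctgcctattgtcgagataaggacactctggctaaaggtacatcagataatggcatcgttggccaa
They lie at chr17:84683012-84683120 and hold no AGGTCA on either strand. Abcg5 stood at 95.8, 100.8, 95.8, 80.04 and 117 CPM in WT and at 98.1, 89.7, 108, 118 and 116 CPM in Fbp1-deleted liver. Abcg8 stood at 94.4, 113, 119, 90.6 and 164 CPM in WT and at 98.9, 106, 124, 118 and 103 CPM in Fbp1-deleted liver. Both sets of groups overlapped, and WT replicate 5 was the highest WT liver and replicate 4 the lowest for both genes. The change was 0.12 for Abcg5 (SE 0.11, adjusted p = 0.511, edgeR) and -0.08 for Abcg8 (SE 0.15, adjusted p = 0.733, edgeR). Their 95% intervals ran from -8.62% to 28.5% and from -24.1% to 17.7%. The log2 ratio of Abcg8 to Abcg5 was 0.22 ± 0.19 (SD, n = 5) in WT and 0.05 ± 0.17 (SD, n = 5) in Fbp1-deleted liver, with ranges of -0.02 to 0.49 and -0.18 to 0.24 that overlapped. An annotated isoform of Abcg8 starts inside Abcg5, so reads on 53 shared words of 31 bases cannot be assigned to a strand.

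Among the uptake carriers, Slc10a1 was the one that rose. The gene lies on chromosome 12, from 80953183 to 80968705 on the minus strand. It stood at 378, 395, 435, 350 and 450.3 CPM in WT and at 503, 491, 567, 468 and 509 CPM in Fbp1-deleted liver. The groups did not overlap, but WT replicate 5 and Fbp1-deleted replicate 9 lay close together. The means were 402 ± 41.0 and 508 ± 36.8 CPM, a change of 0.34 (SE 0.10, adjusted p = 0.0295, edgeR), or 26.4% with a 95% interval from 8.81% to 46.7%. The call was lost with upper quartile scaling (adjusted p = 0.0846), with library totals alone (0.118) and without the filter on low counts (0.0891). Leaving out single livers ended it for replicates 1, 2 and 4 of WT and for 6, 8 and 10 of the Fbp1-deleted group, with adjusted p from 0.0531 to 0.0715. The change stayed between 0.25 and 0.37 throughout.

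Slco1b2 and Slco1a4 leaned in opposite directions without passing the test. Slco1b2 encodes OATP1B2, which takes up bile acids and bilirubin, and lies on chromosome 6 from 141629518 to 141686646 (plus strand). It stood at 512, 514, 577, 478 and 508 CPM in WT and at 498, 322, 377, 417 and 553 CPM in Fbp1-deleted liver. The change was -0.26 (SE 0.14, adjusted p = 0.201, edgeR), with a 95% interval from -31.7% to 2.49%. Replicates 7, 8 and 9 lay below each WT liver, while replicates 6 and 10 lay within the WT range. The WT livers spanned 1.21-fold and the Fbp1-deleted livers 1.72-fold. Slco1a4 (OATP1A4, chromosome 6, 141805440 to 141856199, minus strand) stood at 118 ± 21.3 and 155 ± 45.8 CPM, a change of 0.39 (SE 0.19, adjusted p = 0.158, edgeR). Replicate 10 was highest, at 230.4 CPM, and the other Fbp1-deleted livers lay between 107 and 152 CPM. Without replicate 10 the change was 0.20.

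**Figure D2:**
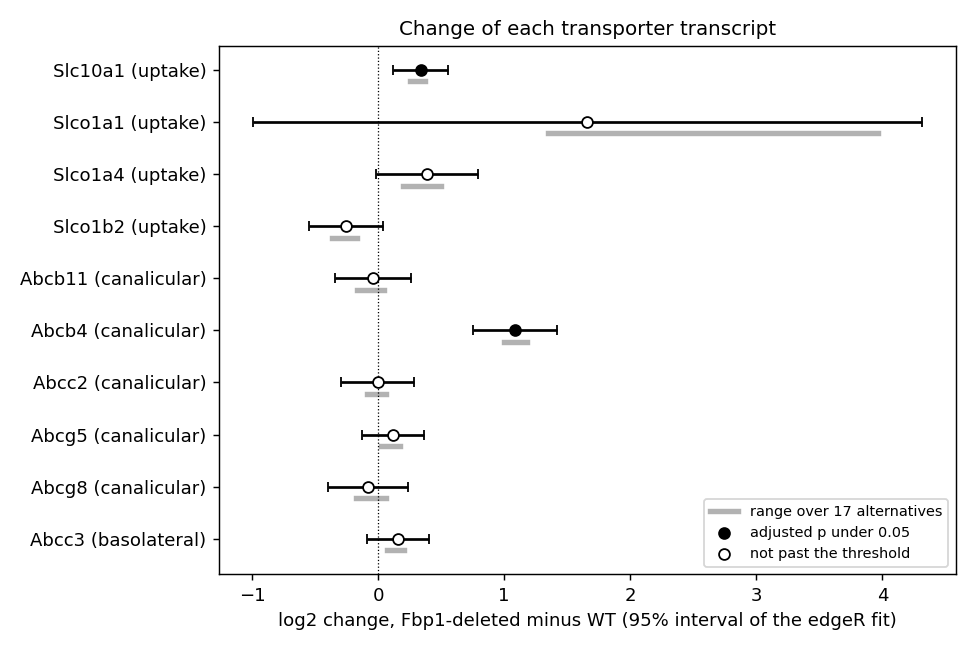
Log2 change of each transporter transcript, Fbp1-deleted minus WT (horizontal axis), with the 95% interval of the edgeR fit, filled where adjusted p was under 0.05, and a grey bar for the range over 17 alternative settings. Abcb4 lies at 1.09 with a grey bar from 0.997 to 1.18, and the interval of Slco1a1 runs from -0.99 to 4.31.

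Slco1a1 was the member whose level varied most between livers of a group. It encodes OATP1A1, an organic anion carrier that is known as more abundant in male than in female mouse liver, under the control of growth hormone. The gene lies on chromosome 6, from 141907282 to 141946962 on the minus strand, and 2.53% of its 31-base words also occur in Slco1a4. It stood at 1.38, 1.23, 8.07, 66.4 and 2.37 CPM in WT replicates 1 to 5, where 1.23 CPM was 30 counts. In Fbp1-deleted replicates 6 to 10 it stood at 20.3, 17.3, 62.9, 73.1 and 75.7 CPM. WT replicate 4 lay among the high Fbp1-deleted livers, and the other 4 WT livers lay below all 5 of them. The change was 1.66 (SE 1.16, adjusted p = 0.356, edgeR) with all libraries. Without WT replicate 4 it was 3.96 (SE 0.80, adjusted p = 0.0130, edgeR), and in limma-voom with all libraries 3.26 (adjusted p = 0.062). Over the 17 alternatives adjusted p ranged from 0.0130 to 0.495.

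A few other sex-biased transcripts had their extreme values in the 4 livers with the most Slco1a1, and most did not. The labels do not state the sex of the mice. Xist, made from the inactive X chromosome, stood at 342 to 696 CPM in all 10 livers, and the Y-linked Ddx3y, Eif2s3y, Kdm5d and Uty at 1.77 CPM or less. The following 3 genes were picked from the fixed lists of sex-biased genes after their values were seen. Sult2a1, a female-biased sulfotransferase, stood at 374, 358, 87.2, 1.69 and 470.5 CPM in WT and at 306, 284, 24.7, 6.68 and 10.7 CPM in Fbp1-deleted liver. Cyp3a41a, a female-biased cytochrome P450, stood at 589, 495, 99.5, 3.17 and 1889 CPM in WT and at 265, 196, 46.5, 20.7 and 25.7 CPM in Fbp1-deleted liver. The 4 livers with the most Slco1a1, WT replicate 4 and Fbp1-deleted replicates 8, 9 and 10, were the 4 with the least of both transcripts. This held for 4 of 27 female-biased genes tested (also Cyp3a16 and Cyp3a44). The same 4 livers were the 4 highest for 3 of 21 male-biased genes (Cyp4a12a, Mup20 and Mup3). The order within these 4 livers differed between genes. The share of all tested genes with these 4 livers as the 4 lowest or the 4 highest was not counted. Cyp3a16, Cyp3a41a and Cyp3a44 belong to the same gene family, and Salmon apportions reads among like transcripts, so they are not separate evidence. The remaining tested genes of these lists did not have the same 4 livers at that end. Among them was the female-biased Sult3a1, which was highest in Fbp1-deleted replicate 10. The male-biased Serpina1e was highest in WT replicate 4, at 284 CPM, where the other livers held 11.7 to 70.2 CPM. Neither Sult2a1, Cyp3a41a nor Serpina1e passed the test between the genotypes (adjusted p = 0.649, 0.250 and 0.471, edgeR). Whether the split of the livers has a part in the Slco1a1 result was not tested.

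**Figure D3:**
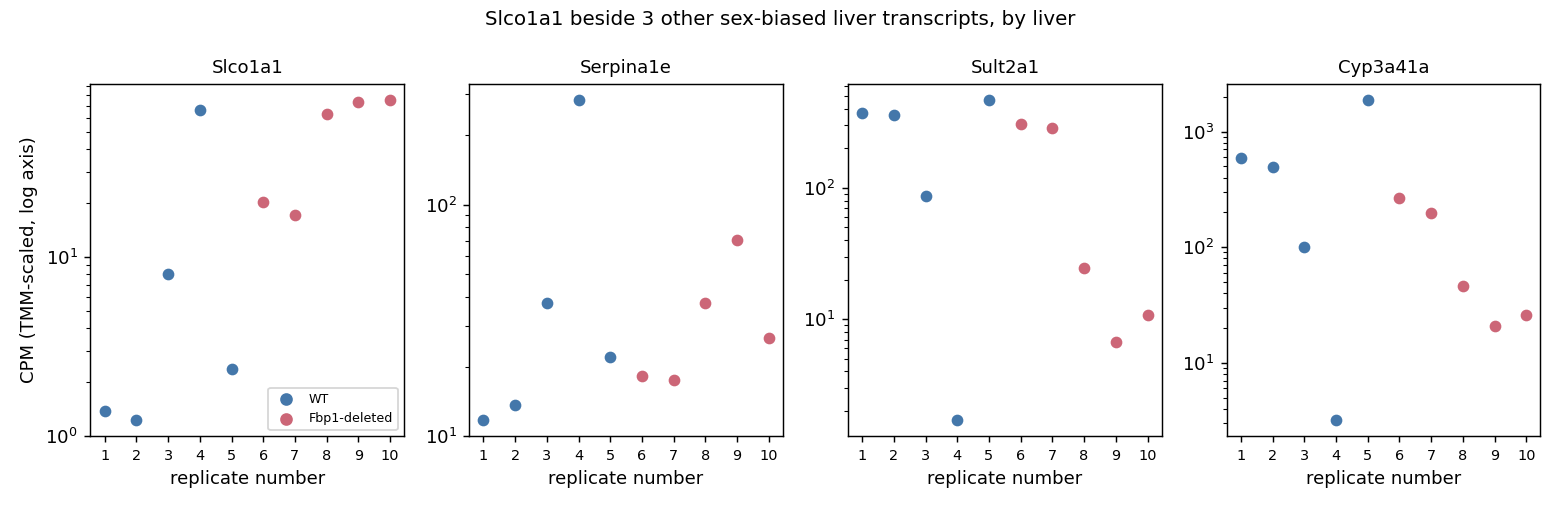
CPM on a log axis of Slco1a1, the male-biased Serpina1e and the female-biased Sult2a1 and Cyp3a41a in each liver, by replicate number, WT in blue and Fbp1-deleted in red. WT replicate 4 holds 66.4 CPM of Slco1a1 and 1.69 CPM of Sult2a1, apart from the other WT livers.

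Of 15 listed genes of the growth hormone pathway, which sets sex bias in liver, 2 rose and 7 fell, with a median change of -0.68. The count higher was 1 without WT replicates 1, 2 or 5 or Fbp1-deleted replicates 6, 7, 9 or 10, and the count lower was 7 or 8 in each fit that left out a liver. Igfals, a serum partner of IGF1, fell from 137 ± 39.3 to 35.8 ± 13.2 CPM, and the transcription factor gene Stat5a from 17.2 ± 3.08 to 7.93 ± 2.03 CPM. The female-biased repressor Cux2 fell from 82.0 ± 29.8 to 19.1 ± 9.12 CPM (changes -1.94, -1.11 and -2.10, adjusted p between 0.000704 and 0.00264, edgeR). Of 21 male-biased genes tested 3 rose and 2 fell, and of 27 female-biased genes 1 rose and 6 fell, Cux2 among them. Without WT replicate 4 the female-biased counts were 0 higher and 10 lower, and by DESeq2 1 higher and 9 lower. The gene called higher lost its call in 7 of the 10 fits that left out a liver. Of the male-biased genes 1 was called higher without Fbp1-deleted replicate 9 and 4 without WT replicate 4. In the female-biased list Acot3 (change -2.02, SE 0.20) and Abcd2 (-1.48, SE 0.20) fell. In the male-biased list Elovl3, a fatty acid elongase, rose by 1.59 (SE 0.28). The urinary protein gene Mup12 (change -1.91, SE 0.30) and Selenbp2 (-1.97, SE 0.43) fell.

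Compared per length, as CPM per kb of exon, Slc10a1 had the highest level of the 10 transcripts in both groups, 183 ± 18.6 (SD, n = 5) in WT and 231 ± 16.7 (SD, n = 5) in Fbp1-deleted liver. In WT the order went on with Slco1b2 (105 ± 7.36), Abcc3 (83.9 ± 12.3), Abcb11 (78.1 ± 10.9) and Abcc2 (46.8 ± 6.22). Abcg5 (36.1 ± 4.83), Abcg8 (30.97 ± 7.82), Abcb4 (26.9 ± 5.15), Slco1a4 (18.4 ± 3.33) and Slco1a1 (3.01 ± 5.38) followed. Ranges of neighbours overlapped between Abcc3 and Abcb11 and along the run from Abcc2 to Slco1a4, and did not overlap at the other steps. In Fbp1-deleted liver Abcc3 (93.5 ± 6.18) stood above Slco1b2 (87.9 ± 18.8), with ranges that overlapped, and Abcg5 (39.1 ± 4.47), Abcg8 (29.3 ± 2.82), Slco1a4 (24.1 ± 7.14) and Slco1a1 (9.45 ± 5.46) closed the order. Abcb4 moved from rank 8 in WT to rank 5, where it held 57.2 ± 10.3 CPM per kb beside 76.1 ± 15.2 for Abcb11 and 46.6 ± 8.44 for Abcc2, with ranges that overlapped both. The exon length counts all annotated isoforms, 9.38 kb for Abcb4, which lowers the value of genes with long rare exons. The sources used here do not state whether the counts had already been adjusted for transcript length, which would alter a level per kb. Without WT replicate 4 the WT level of Slco1a1 was 0.618 CPM per kb.

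**Figure D4:**
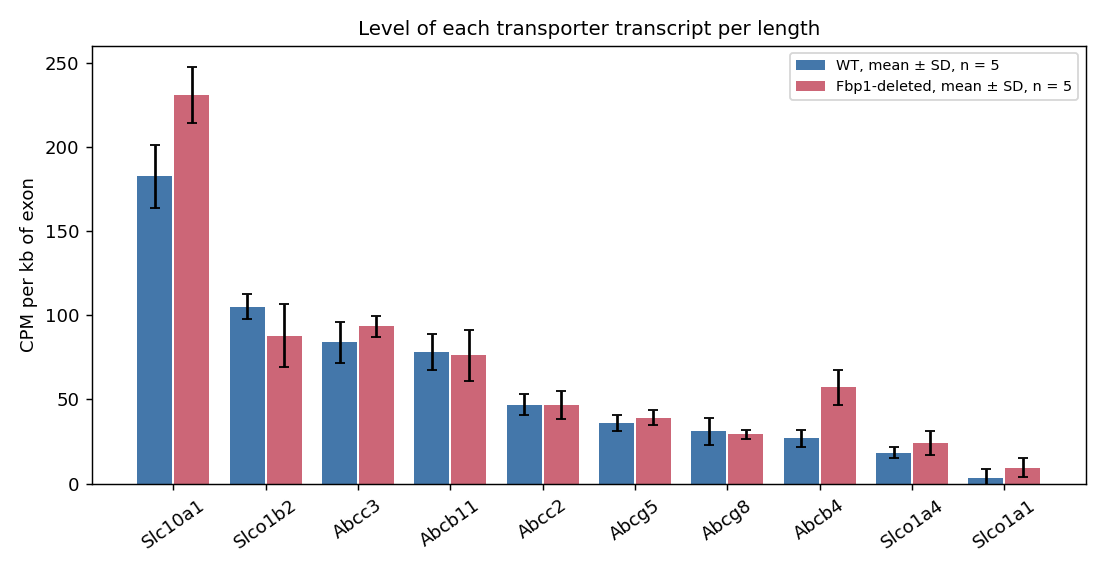
Level of each transporter transcript as CPM per kb of annotated exon (vertical axis, from 0), bars for the mean and whiskers for the SD of 5 WT and 5 Fbp1-deleted livers, in the order of the WT means. Slc10a1 stands highest at 183 and 231, and Abcb4 goes from 26.9 to 57.2.

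Of 36 other carriers of bile acids, organic anions and lipids, 29 were tested, of which 4 rose and 3 fell (median change 0.05). The count higher was 0 without Fbp1-deleted replicate 6, 1 without WT replicates 1, 2 or 5 and 2 without Fbp1-deleted replicates 9 or 10. Slc22a18 fell from 120.4 ± 11.5 to 84.4 ± 8.51 CPM (adjusted p = 0.00350, edgeR). Abcb1a, a canalicular drug pump and the closest relative of Abcb4 by shared words (2.35% of those of Abcb4), fell from 9.98 ± 2.62 to 5.37 ± 0.663 CPM (adjusted p = 0.00433, edgeR). Slc10a3, of the NTCP family, rose from 3.21 ± 0.646 to 5.09 ± 0.638 CPM, a call lost without the filter on low counts and without Fbp1-deleted replicate 6 (adjusted p = 0.0505 and 0.0605, edgeR). The other carriers called were the organic anion carrier Slc22a7 at 1.30 (SE 0.35), Abcc9 at 0.52 (SE 0.17), Tmem30a, a subunit of phospholipid flippases, at 0.37 (SE 0.13) and the drug exporter Slc47a1 at -0.49 (SE 0.15). Each of these 4 calls was lost without any 1 of several libraries, with adjusted p up to 0.131. The canalicular flippase Atp8b1 stood at 20.3 ± 5.10 and 17.3 ± 2.98 CPM, and Abcc4, which exports bile acids to blood, at 5.64 ± 2.72 and 4.22 ± 1.21 CPM (adjusted p = 0.362 and 0.329, edgeR). Slc51a and Slc51b, the subunits of the bile acid exporter OST, were too low to test.

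Of 26 regulators of the transporters tested, 0 rose and 7 fell by edgeR, by DESeq2 and by limma-voom, with a median change of -0.16. At an unadjusted p under 0.05 (edgeR), 2 were higher and 10 lower, and without WT replicate 3 the count called higher was 1. Foxa2, a hepatocyte transcription factor, fell from 33.4 ± 6.50 to 7.64 ± 2.92 CPM (change -2.12, SE 0.23), the oestrogen receptor Esr1 from 26.2 ± 3.98 to 10.9 ± 2.84 CPM (-1.27, SE 0.18) and the xenobiotic receptor CAR (Nr1i3) from 642 ± 99.2 to 306 ± 63.9 CPM (-1.07, SE 0.15). In edgeR the adjusted p of these genes ran from 0.000128 to 0.000478. The other 4 were Nr0b2, Rxra, Nr3c1 and Cebpa. The bile acid receptor FXR (Nr1h4) stood at 141 ± 15.9 and 127 ± 7.52 CPM, and LXR alpha (Nr1h3) at 121 ± 7.57 and 111 ± 12.1 CPM (adjusted p = 0.297 and 0.413, edgeR).

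Other genes controlled by these receptors went both ways. Of 20 other FXR targets tested 6 rose and 4 fell (median -0.09). The list does not separate genes that FXR induces from genes that it represses, so these counts give no direction of FXR activity. Cyp8b1, described below, was among the genes that rose, and Nr0b2 among those that fell. Insig2, a retention factor of sterol regulation, rose from 63.8 ± 10.8 to 304 ± 85.7 CPM and Osgin1 fell from 89.8 ± 27.1 to 21.3 ± 6.66 CPM (adjusted p = 3.48e-05 and 0.000741, edgeR). Nr0b2, the FXR-induced repressor SHP, stood at 9.98 to 25.3 CPM in WT and at 0.240 to 2.81 CPM in Fbp1-deleted liver, while the FXR target Abcb11 showed the overlap described above. Of 18 other LXR targets tested 2 rose and 2 fell (median 0.07). The listed Abca1, Abcg1, Srebf1, Mylip and Lpcat3 were tested and did not pass. The lipogenic enzyme genes Acaca and Fasn rose by 1.52 (SE 0.14) and 1.26 (SE 0.20), Pltp fell, and Ctsb fell by 0.39 on the log2 scale (SE 0.11), a call that ended when WT replicate 2 (adjusted p = 0.0618, edgeR) or Fbp1-deleted replicates 6 (0.0575) and 9 (0.0634) were left out 1 at a time. The count of LXR targets called lower was 0 without WT replicate 2 or Fbp1-deleted replicate 9, so the call of Pltp ended there too, and 1 without WT replicate 5 or Fbp1-deleted replicates 6, 7 or 10. The FXR targets called lower numbered 2 without WT replicate 5 or Fbp1-deleted replicates 7, 9 or 10. Of 30 PXR and CAR targets 2 rose (Cyp2b10 and Ugt1a9) and 4 fell (median -0.07). Among those that fell were Cyp2a5 at -1.85 (SE 0.24) and Gadd45b at -1.08 (SE 0.25). The count of PXR and CAR targets called higher was 0 without the filter on low counts. It was also 0 without WT replicate 2 or Fbp1-deleted replicates 6, 7, 9 or 10, and 1 without any 1 of the other WT livers. The count called lower was 4 or 5 in each setting.

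Of 23 tested targets of PPARA, a fatty acid receptor known to induce Abcb4, 7 rose and 0 fell by edgeR, with a median change of 0.21. At an unadjusted p under 0.05, 10 were higher and 0 lower, and the calls were 9 higher and 0 lower by DESeq2 and 4 higher and 0 lower by limma-voom. The droplet protein gene Plin2 rose from 517 ± 43.5 to 919 ± 179.8 CPM (adjusted p = 0.00111, edgeR). Fgf21 rose from 1.90 ± 0.640 to 11.8 ± 7.44 CPM, with limma-voom at adjusted p = 0.0524. Of 27 tested targets of NRF2, an oxidant-responsive transcription factor known to induce Abcc3 and Abcc2, 7 rose and 3 fell (median 0.12). Among these Me1 and Pgd rose by 1.64 (SE 0.15) and 1.62 (SE 0.13) and Srxn1 by 1.198 (SE 0.18). The 3 that fell were Gsta3, Ces1g and Osgin1. The listed Nqo1, Gclc, Gclm, Hmox1 and Txnrd1 were tested and did not pass. Of 20 bile acid synthesis genes tested 4 rose and 2 fell (median -0.015). The count called lower was 4 with upper quartile factors, library totals, the stricter filter or DESeq2 and without Fbp1-deleted replicate 10, and 1 without WT replicates 1, 2 or 5 or Fbp1-deleted replicates 7 or 9, while the count called higher lay between 3 and 5. Among them was Cyp8b1, the sterol hydroxylase that sets the cholic acid share, at 91.9 ± 9.79 CPM in WT and 583 ± 155 CPM in Fbp1-deleted liver (change 2.67, SE 0.17, adjusted p = 8.22e-07, edgeR). It is also on the list of FXR targets. Also called higher were the sterol carrier Scp2, from 1482 ± 164 to 2287 ± 239 CPM, and the peroxisomal enzyme Hsd17b4, by 0.45 (SE 0.10). Lists share genes, so their counts are not separate evidence.

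The genes whose pattern over the 10 livers was most like that of a transporter were found by the mean absolute difference in log2 CPM after centring each gene. For Abcb4 these were Qrsl1 and Dusp3, with differences of 0.114 and 0.119, and for Slc10a1 Cnpy4 and Rere, with 0.0581 and 0.0710. Slco1b2 was closest to Akr1c14, a hydroxysteroid dehydrogenase gene of the bile acid synthesis list, with 0.0798. For Slco1a1 the nearest gene, Gm45044, still differed by 0.892 on average.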

How the data were processed

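The authors deposited estimated counts for each gene in 10 livers. The authors' tools were CASAVA and Salmon with the build GRCm38, per the submitters' processing notes, without versions. The design text also describes STAR, featureCounts and DESeq2, and does not say which route made this table. All estimated counts were deposited as whole numbers (0 were not whole). Where transcripts are alike, Salmon apportions reads by a statistical model, and the library does not keep strand. Members shared between 0.0% and 5.03% of their 31-base words with other GENCODE M21 genes.

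Identifiers were matched to GENCODE M21 (52175 with and 1180 without the version, 37 unmatched). Genes passing filterByExpr (15392) were fitted with edgeR 4.0.16 in R 4.3.3, with TMM scaling and a robust quasi-likelihood F test of Fbp1-deleted against WT, without covariates, since no batch or pairing is given. SE was taken as the absolute change over the root of the F statistic. The design text calls the replicates biological. Within a group, any pair of libraries differed with a chi-square of at least 16.2 per degree of freedom, far over sampling noise. In simulated counts for this comparison (15062 genes), 34% of genes changed by 1.5-fold and 74% of those changed by 2-fold were recovered. Only 200 genes were changed there, while 3178 were called in the data, so the adjusted cutoff was stricter in the simulation. These shares are therefore not the recovery to be had for the members.

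Members and lists were chosen with earlier results of these data known. Named were all members, Fbp1, the 3 genes of each list with the smallest p, sex chromosome transcripts and the 2 genes most like each member. One gene that this rule names is not reported here. Nr0b2, Nr1h4, Nr1h3, Sult2a1, Cyp3a41a, Serpina1e, Abcc4, Atp8b1, Slc22a7, Abcc9, Tmem30a and Slc47a1, and genes that only complete a count, were added after their values were seen. Alternatives were RLE, upper quartile and no scaling factors, no filter, a filter of 100 counts in 5 libraries, DESeq2 1.42.0, limma-voom (limma 3.58.1) and each library left out.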

Additional observations from a re-analysis of the deposited data

Results flagged for a closer look

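Within groups of 5 livers, single livers stood apart by Dixon's criterion (gap to the nearest liver over the range above 0.71) in 11 of 114 groups of the genes named. Chance gives about 1 in 20 for genes taken blindly, which these were not, since Serpina1e, Abcc4 and Slc22a7 were added after their values were seen. Among the 10 members this held for Slco1a1 alone, at 66.4 CPM in WT replicate 4 beside 1.23 to 8.07 CPM in the other WT livers. WT replicate 4 was also apart for Serpina1e (284 CPM beside 11.7 to 37.4), Acot3 (169.8 CPM beside 337 to 393.5) and Scp2 (1768 CPM beside 1371 to 1473). WT replicate 5 was apart for Cux2 (135 CPM beside 65.4 to 74.4) and Mup12 (41.2 CPM beside 13.4 to 18.6). Fbp1-deleted replicate 8 was apart for Srxn1 (34.6 CPM beside 63.6 to 71.7) and Stat5a (11.5 CPM beside 6.78 to 7.75), and replicate 10 for the exporter Abcc4 (6.34 CPM beside 3.35 to 4.02). Slc22a7 stood at 17.7 CPM in WT replicate 3 beside 5.55 to 8.80, and Kdm5d at 1.77 CPM in WT replicate 1 beside 0.823 to 1.09.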

How the results depend on the processing

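Over 17 alternatives the count of transporters called lower stayed at 0 and the count called higher was 1 or 2. It was 1 with upper quartile factors, with library totals alone and with no filter on low counts, and 1 to 2 with libraries left out, since Abcb4 kept its call throughout and Slc10a1 lost it in 9 settings. Without WT replicate 4 the 2 genes called were Abcb4 and Slco1a1. Abcb11, Abcc2 and Abcg8, which were not called, changed sign in some settings. Over all genes the calls were 1636 higher and 1542 lower, with ranges of 1066 to 2060 and 1019 to 1858 when libraries were left out (Fbp1-deleted replicates 6 and 9 gave the lowest). Calls in the higher direction were 51.5% of all with TMM, 40.3% with upper quartile factors and 37.7% with library totals. Of the genes in the related lists 36 were higher and 35 lower, 23 higher without the filter on low counts, and 22 to 38 higher and 29 to 39 lower with libraries left out (WT replicate 1 and Fbp1-deleted replicates 6 and 9 gave 22 or 23). The cause of these shifts was not tested. Counts within single lists differed by more than 1.5 times from those reported in 66 of 374 comparisons. The WT level of Slco1a1 per kb was 3.01 CPM with all livers and 0.618 CPM without WT replicate 4. The other levels per length moved by -13.0% to 16.3% under other scaling or with a library left out. No paired analysis was made because no pairing of the livers is given. Depth limits only Slco1a1, with 28 to 149 counts in 4 WT libraries.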
